A study of Mus musculus with 60 samples.

Results

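The 10 genes described here, Lgr5, Axin2, Ascl2, Smoc2, Cdca7, Myc, Rnf43, Znrf3, Sox9 and Ephb2, are known as intestinal crypt stem cell genes or targets of Wnt signaling. They were taken by mouse gene symbol from a table of 27179 Entrez gene identifiers counted in 60 RNA Seq libraries of mouse colon, and all 10 were among the 18057 genes that passed the filter on low counts. The rule goes by symbol and uses no measured value, but the 10 genes and all gene lists used below were chosen with earlier results of these data known. Counts of genes called within them are therefore descriptions and not independent tests. CIA (collagen-induced arthritis) mice were male DBA/1 animals given bovine type II collagen in Complete Freund's adjuvant by intradermal injection at 9 to 10 weeks of age and boosted with collagen on day 21, and their colonic tissue was taken 7 days after symptoms appeared. Naïve mice, of the same sex and strain and housed with the CIA mice, were sampled in parallel. Each treatment had 5 mice at each of 6 zeitgeber times (ZT, hours after lights on), ZT0, ZT4, ZT8, ZT12, ZT16 and ZT20, with lights off at ZT12. Since a CIA mouse differs from a naïve mouse in adjuvant, collagen and arthritis together, these cannot be told apart here.

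The colonic epithelium is replaced every few days by stem cells at the base of the crypts. Wnt ligands and R-spondins from the surrounding stroma act on these cells through Frizzled and LRP receptors, which stabilizes β-catenin, and β-catenin with TCF and LEF factors switches on genes that keep the cells dividing. Several of those genes encode proteins that in turn restrain the pathway, and expression of Wnt target genes declines as cells move up the crypt and differentiate.

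Every library came from a 5 mm piece of whole mid-colon, so crypt cells were measured together with mucosal stroma and the muscle wall. In such bulk tissue, fewer cells of a type and less RNA per cell cannot be told apart. Gene-assigned counts ranged between 31382664 and 57564488 per CIA library (median 45528580) and between 25840240 and 61425974 per naïve library (median 43267100). All 15 listed epithelial markers and all 17 smooth muscle markers were detected, so the libraries carried both layers. The smooth muscle score, the mean over the 17 markers of log2 CPM (counts scaled to a library total of 1000000), was 9.48 to 11.2 in CIA libraries (median 10.5) and 8.68 to 10.8 in naïve libraries (median 9.70). The epithelial score was 8.69 to 9.44 in CIA libraries (median 9.13) and 8.82 to 9.41 in naïve libraries (median 9.21).

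The genes fall into a few roles. Lgr5 (Entrez 14160, chromosome 10, 115450314 to 115587780 of GRCm38 in the RefSeq annotation) encodes a receptor for R-spondins and is the classical marker of crypt base columnar stem cells. Rnf43 (207742, chromosome 11, 87663087 to 87735539) and Znrf3 (407821, chromosome 11, 5276329 to 5444847) encode membrane ubiquitin ligases that remove Frizzled receptors from the cell surface. Axin2 (12006, chromosome 11, 108917828 to 108950783) encodes a scaffold of the complex that destroys β-catenin and is the most widely used Wnt target gene. Ascl2 (17173, chromosome 7, 142966822 to 142969264) encodes a transcription factor of the stem cells, Myc (17869, chromosome 15, 61985341 to 61990361) one that promotes growth and division, and Sox9 (20682, chromosome 11, 112782210 to 112787757) one of the lower crypt. Smoc2 (64074, chromosome 17, 14279490 to 14404790) encodes a secreted calcium-binding matrix protein found in crypt stem cells and also in mesenchymal cells. Cdca7 (66953, chromosome 2, 72476187 to 72486892) encodes a nuclear protein linked to the cell cycle, and Ephb2 (13844, chromosome 4, 136647536 to 136836326) a receptor that keeps crypt cells in their place through ephrin signaling. All 10 genes are protein coding.

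Upstream windows of 250 bases, ending at the base before a transcript start, were present in the RefSeq promoter table (GRCm38.p6) for 5 of the 10 genes. The windows of Axin2, Cdca7, Ephb2 and Ascl2 are shown because 3 of these genes were called lower in CIA tissue and Ascl2 was not, and because they lie beside the transcript starts of pathway and stem cell genes. Capitals mark GC boxes (GGGCGG) and CCAAT boxes, each on either strand, and the letters run 5′ to 3′ along the coding strand of the gene.
Axin2, chr11:108920099-108920348, plus strand: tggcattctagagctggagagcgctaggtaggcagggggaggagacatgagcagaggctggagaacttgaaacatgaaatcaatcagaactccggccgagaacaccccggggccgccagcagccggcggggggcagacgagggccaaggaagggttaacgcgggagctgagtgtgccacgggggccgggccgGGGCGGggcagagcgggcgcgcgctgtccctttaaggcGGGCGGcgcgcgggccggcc
Cdca7, chr2:72475969-72476218, plus strand: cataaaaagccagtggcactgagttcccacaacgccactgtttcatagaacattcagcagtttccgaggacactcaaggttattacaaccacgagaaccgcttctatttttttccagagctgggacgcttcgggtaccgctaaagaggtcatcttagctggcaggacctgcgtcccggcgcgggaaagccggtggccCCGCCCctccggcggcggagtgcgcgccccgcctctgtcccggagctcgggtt
Ephb2, chr4:136836013-136836262, minus strand: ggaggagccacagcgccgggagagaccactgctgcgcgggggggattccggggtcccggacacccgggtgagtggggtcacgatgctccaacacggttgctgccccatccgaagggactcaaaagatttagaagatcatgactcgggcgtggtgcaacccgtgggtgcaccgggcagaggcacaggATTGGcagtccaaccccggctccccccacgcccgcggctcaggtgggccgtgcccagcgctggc
Ascl2, chr7:142969265-142969514, minus strand: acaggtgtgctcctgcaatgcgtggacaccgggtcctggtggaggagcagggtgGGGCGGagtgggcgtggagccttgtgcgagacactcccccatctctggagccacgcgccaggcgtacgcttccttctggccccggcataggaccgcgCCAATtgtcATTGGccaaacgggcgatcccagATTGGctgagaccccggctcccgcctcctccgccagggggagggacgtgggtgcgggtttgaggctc
The Axin2 window held 2 GC boxes, the Cdca7 window 1 GC box, the Ephb2 window 1 CCAAT box, and the Ascl2 window 1 GC box and 3 CCAAT boxes. Both windows of Rnf43, the remaining gene of the 5, held neither. GC boxes were present in 32.7% of all 32851 windows of this length and CCAAT boxes in 33.8%. The TCF and LEF letters CTTTGAA or CTTTGAT, on either strand, were in 7.48% of all windows and in 0 of the 6 windows of these genes, and the E-box CACGTG was in 6.02% and in 0 of the 6. These are letter matches within 250 bases, and sites elsewhere in the genes were not searched. By the annotated gene bounds, the windows of Axin2 and Ephb2 and 1 window of Rnf43 lie inside their genes. The Cdca7 window ends inside its gene, so these windows do not precede the outermost starts. The windows of Axin2 (69.2% G or C), Ephb2 (68.4%), Ascl2 (67.6%) and Cdca7 (59.2%) were above the median of 52.4% over all windows.

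Per kilobase of all annotated exons, Sox9 had the highest level and Lgr5 the lowest, in both treatments. Sox9 averaged 16.3 ± 2.71 CPM per kilobase in CIA tissue and 18.96 ± 4.09 in naïve tissue (SD, n = 30 mice each, as for all levels pooled over time). Cdca7 averaged 10.6 ± 1.73 CPM per kilobase in CIA tissue and 12.4 ± 2.93 in naïve tissue. Lgr5 averaged 0.236 ± 0.0706 CPM per kilobase in CIA tissue and 0.300 ± 0.0827 in naïve tissue. The stem cell receptor gene was thus the scarcest of the 10 in whole colonic tissue. Between these lay, in CIA tissue, Smoc2 at 8.18 ± 1.39, Myc at 6.90 ± 1.52, Axin2 at 5.10 ± 0.907, Rnf43 at 4.40 ± 1.08, Ephb2 at 3.52 ± 0.855, Ascl2 at 3.42 ± 1.23 and Znrf3 at 1.54 ± 0.222 CPM per kilobase. In naïve tissue Myc (8.88 ± 1.92) stood above Smoc2 (6.89 ± 1.27), and Axin2 was at 6.06 ± 1.44, Rnf43 at 5.21 ± 0.984, Ephb2 at 4.65 ± 0.782, Ascl2 at 3.54 ± 0.997 and Znrf3 at 1.44 ± 0.180 CPM per kilobase. In CIA tissue the neighbors Smoc2 and Myc, Axin2 and Rnf43, Rnf43 and Ephb2, and Ephb2 and Ascl2 differed by less than the larger of their SDs, as did Smoc2 and Axin2, Axin2 and Rnf43, and Rnf43 and Ephb2 in naïve tissue. The place of Smoc2 depended on the length used, since per kilobase of its longest transcript it had 20.1 CPM in CIA tissue, above Sox9 (16.3), and 16.9 in naïve tissue, below Sox9 (18.96). The low level of Lgr5 rested on 60 to 307 raw counts per library (median 112).

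Comparing all 30 CIA with all 30 naïve libraries asked whether the level of these genes differed between the treatments over the whole day. Ephb2, Myc, Lgr5, Axin2, Rnf43, Cdca7 and Sox9 were lower in CIA tissue, by 13.8% to 24.2%, Smoc2 was higher by 18.7%, and Ascl2 and Znrf3 did not pass the test (edgeR quasi-likelihood test, Benjamini-Hochberg adjustment over 18057 genes, adjusted p under 0.05). Adding time point as a term kept all of these calls, adding the smooth muscle score ended all 8, and adding the proliferation score ended 5, as given further on. Of all genes tested, 20.4% were called lower and 17.6% higher, against 7 and 1 of the 10 genes. The median log2 fold change (CIA over naïve) of the 10 was -0.23, beside -0.02 over all genes tested. The treatments overlapped for every gene, as the plot of levels by time point shows.

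**Figure D1:**
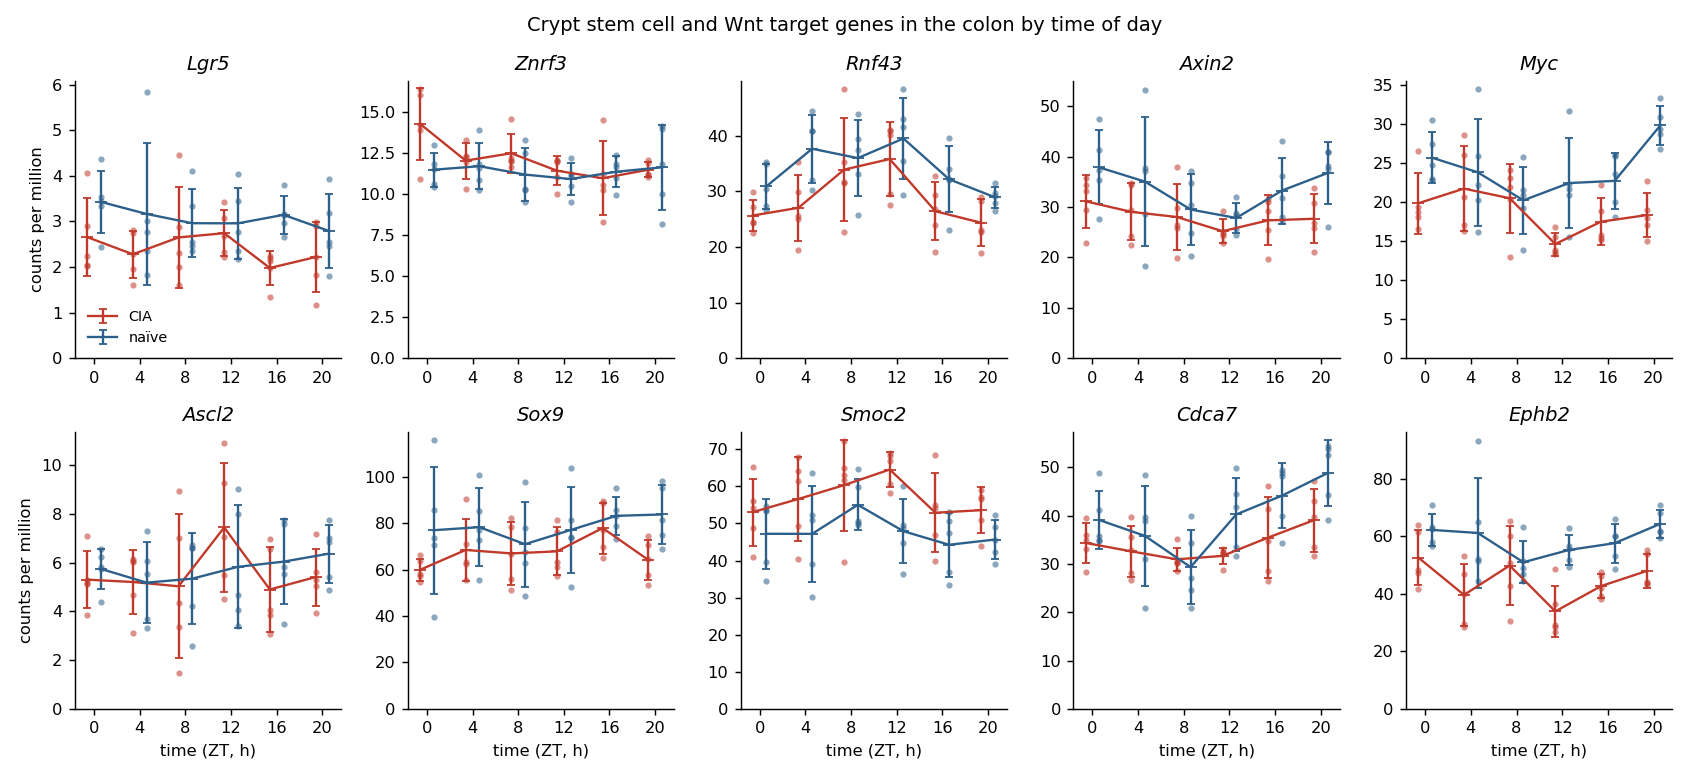
Level of each of the 10 genes in CPM (vertical axis) by zeitgeber time in hours (horizontal axis). Points are single libraries and lines join the group means with SD bars (5 mice per point), CIA left of naïve at each time. Ephb2 and Myc ran lower in CIA tissue over most of the day, Smoc2 ran higher at all 6 time points, and Ascl2 and Znrf3 showed no such separation.

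The R-spondin receptor gene Lgr5 had a lowest, median and highest level of 1.16, 2.24 and 4.45 CPM in CIA libraries, against 1.80, 2.99 and 5.85 CPM in naïve libraries. Of the 30 CIA libraries, 26 lay below the naïve median, though only 4 lay below the lowest naïve library. It had a log2 fold change of -0.34 (SE 0.10, 95% interval -0.55 to -0.14, edgeR adjusted p = 0.00689), a fall of 21.2%. Without ZT16 the adjusted p was 0.0540.

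Of the ligase genes, both of which act against the Wnt receptors, Rnf43 passed the test and Znrf3 did not, and the difference between them was not tested. Rnf43 had 18.9, 27.9 and 48.4 CPM (lowest, median, highest) in CIA libraries and 23.1, 32.7 and 48.4 CPM in naïve libraries. Most of the range was shared, with 23 CIA libraries below the naïve median and 7 below the lowest naïve library. Its log2 fold change was -0.24 (SE 0.08, edgeR adjusted p = 0.0107), and 0.0744 was the adjusted p without ZT4. Znrf3 had 8.32, 11.99 and 16.4 CPM in CIA libraries and 8.17, 11.4 and 14.2 CPM in naïve libraries. The CIA libraries reached somewhat higher, with 19 of them above the naïve median and 5 above the highest naïve library. The log2 fold change of Znrf3 was 0.09 (SE 0.05, 95% interval -0.01 to 0.19, edgeR adjusted p = 0.158).

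Axin2, which feeds back on β-catenin, had 19.6, 27.97 and 37.99 CPM (lowest, median, highest) in CIA libraries and 18.4, 33.4 and 53.2 CPM in naïve libraries. The naïve libraries reached higher, while the lowest values of the treatments were close, and 24 CIA libraries were below the naïve median. The log2 fold change was -0.25 (SE 0.08, edgeR adjusted p = 0.00864), and the call was lost without ZT20 (adjusted p = 0.0643).

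Among the transcription factor genes, Myc had 12.9, 18.0 and 28.6 CPM (lowest, median, highest) in CIA libraries and 13.8, 23.3 and 34.4 CPM in naïve libraries. It was below the naïve median in 26 of 30 CIA libraries, and 3 lay below all naïve libraries. This gave a log2 fold change of -0.36 (SE 0.08, 95% interval -0.52 to -0.20, edgeR adjusted p = 0.000287), or 22.2% lower. Sox9 had 51.3, 64.8 and 90.4 CPM in CIA libraries and 39.7, 77.5 and 116 CPM in naïve libraries. The naïve spread was wide enough to cover all CIA libraries, of which 24 were below the naïve median. The log2 fold change of Sox9 was -0.21 (SE 0.07, edgeR adjusted p = 0.0150), with an adjusted p of 0.107 without ZT20. Ascl2 had 1.48, 5.29 and 10.9 CPM in CIA libraries and 2.57, 5.83 and 9.03 CPM in naïve libraries. CIA libraries held both its lowest and its highest values. Its log2 fold change was -0.05 (SE 0.12, 95% interval -0.30 to 0.20, edgeR adjusted p = 0.773).

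Ephb2, the receptor that positions crypt cells, had the smallest adjusted p of the 10. Its lowest, median and highest levels were 26.8, 43.8 and 65.2 CPM in CIA libraries, against 44.4, 58.7 and 93.0 CPM in naïve libraries. Of the CIA libraries, 16 lay below the lowest naïve library and 26 below the naïve median. The log2 fold change was -0.40 (SE 0.08, 95% interval -0.55 to -0.25, edgeR adjusted p = 4.73e-05), a 24.2% lower level. Cdca7, of the dividing crypt compartment, had 26.5, 32.9 and 47.3 CPM in CIA libraries and 20.8, 39.9 and 54.4 CPM in naïve libraries. Again 26 CIA libraries fell below the naïve median, but none fell below the lowest naïve library. Its log2 fold change was -0.22 (SE 0.08, edgeR adjusted p = 0.0204), and the adjusted p was 0.102, 0.0631 and 0.0722 without ZT12, ZT16 and ZT20.

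Smoc2, the matrix protein gene, moved the other way. It had 39.5, 57.7 and 72.1 CPM (lowest, median, highest) in CIA libraries and 30.1, 49.5 and 64.8 CPM in naïve libraries. The CIA mean was higher at all 6 time points, 22 CIA libraries were above the naïve median, and 8 were above the highest naïve library. It had a log2 fold change of 0.25 (SE 0.07, 95% interval 0.11 to 0.38, edgeR adjusted p = 0.00271). All 8 calls, of Smoc2 and of the 7 lower genes, held when any 1 of the 60 libraries was left out.

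Other cell types moved with treatment in the same libraries. All 17 smooth muscle markers were higher in CIA tissue (median log2 fold change 0.66), among them the contractile genes Flna (0.64), Acta2 (0.66) and Pgm5 (0.71). The summed level of the 17 was 15711 to 55191 CPM in CIA libraries and 9584 to 42280 CPM in naïve libraries. Sums in this paragraph were scaled to raw library totals, without the normalization factors used for other levels. All 12 enteric neuron and glia markers were higher as well (median 0.59). Of 15 epithelial markers, 5 were lower and 0 higher (median -0.03), and 17 of 19 proliferation genes were lower (median -0.41), including the DNA replication genes Mcm2 (-0.68), Mcm5 (-0.61) and Tyms (-0.38). The epithelial sum was 11849 to 19797 CPM in CIA libraries and 12109 to 19568 CPM in naïve libraries, and the proliferation sum 207 to 789 CPM in CIA libraries and 318 to 1164 CPM in naïve libraries. Of 10 goblet and secretory markers 4 were lower, of 10 differentiated colonocyte markers 2 were higher and 1 lower, and of 7 T cell markers 4 were lower. The medians of 10 fibroblast, 8 endothelial and 7 B cell markers were 0.04, -0.00 and -0.41, none of them called by edgeR, and the B cell sum ranged between 6.74 and 458 CPM in CIA libraries and between 9.09 and 509 CPM in naïve libraries.

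The fold changes of the 10 genes were therefore also fitted with these scores as covariates, which the plot of fold changes by fit sets side by side. With the smooth muscle score in the fit, 0 of the 10 genes passed, and of all genes 462 were called higher and 480 lower. Ephb2 then had a log2 fold change of -0.28 (edgeR adjusted p = 0.0725), Myc -0.12 (0.457), Lgr5 -0.12 (0.609), Smoc2 0.10 (0.487), Axin2 -0.04 (0.831) and Ascl2 0.38 (0.0847). Rnf43 (0.01, 0.941), Sox9 (0.01, 0.965), Cdca7 (0.02, 0.917) and Znrf3 (0.00, 0.977) were near 0. The score itself differed between treatments, so what the covariate removes cannot be told apart from what treatment does.

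With the epithelial score as covariate, 7 calls held and Sox9 did not pass (log2 fold change -0.14, edgeR adjusted p = 0.0617). With the proliferation score, Rnf43 (-0.36, adjusted p = 0.00119), Sox9 (-0.23, 0.0303) and Ephb2 (-0.21, 0.0174) were lower and Znrf3 was higher (0.16, 0.0208), while Lgr5 (-0.30, 0.0552), Myc (-0.17, 0.0907), Axin2 (-0.07, 0.538), Cdca7 (-0.08, 0.499) and Smoc2 (0.18, 0.0625) did not pass. The proliferation score also differed between treatments, with a median of 4.01 in CIA libraries and 4.54 in naïve libraries. What that covariate removes therefore cannot be told apart from what treatment does either. With the B cell score all 8 calls held. The part of each tissue component in the lower levels was not tested beyond these fits.

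**Figure D2:**
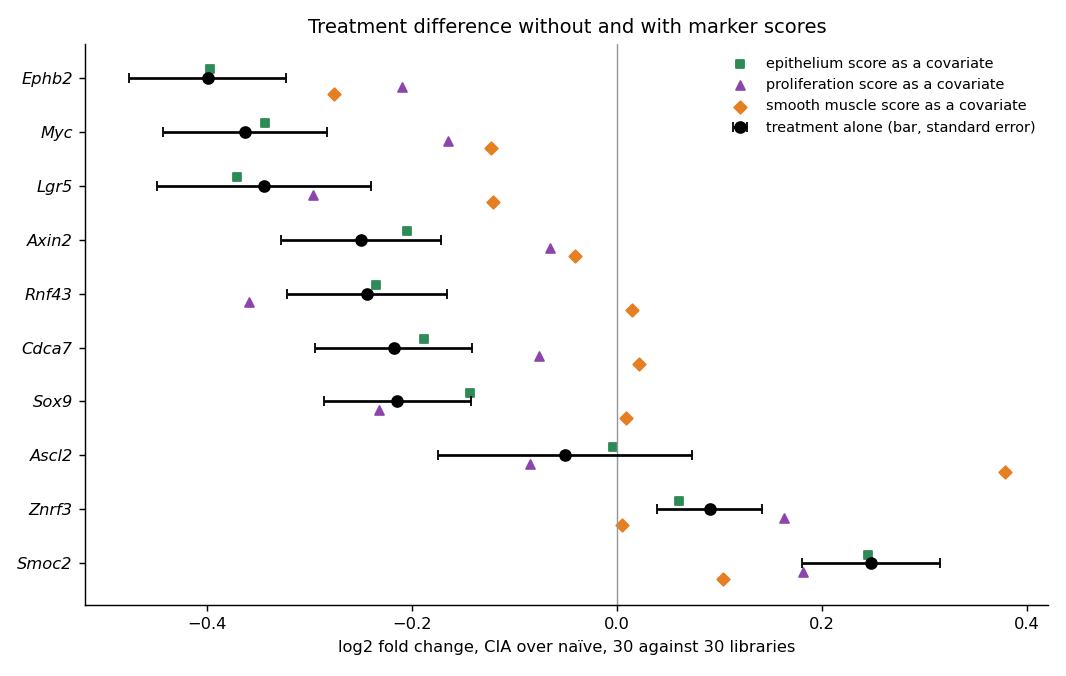
Log2 fold change of each gene, CIA over naïve (horizontal axis, 30 against 30 libraries), for treatment alone (black, with SE bars) and with the epithelial, proliferation or smooth muscle score as a covariate (colored marks). With the smooth muscle score the values moved toward 0 for 9 of the 10 genes, Ascl2 (0.38) being the exception, and Ephb2 stayed lowest at -0.28.

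Taken at single time points, where 5 CIA mice were set against 5 naïve mice, Ephb2 was lower at ZT12 and Myc at ZT12 and ZT20, and no other test of the 10 genes passed (edgeR adjusted p under 0.05 over all genes, within each time point). Of all genes, 6.42% were called lower and 2.86% higher at ZT12, and 6.88% and 6.14% at ZT20. At ZT0, ZT4, ZT8 and ZT16 the shares called lower were 0.0111%, 0.642%, 0.0332% and 0.00554%, and those called higher 0.0111%, 0.216%, 0.00% and 0.00%. The plot of fold changes by time point shows the values of all 10 genes.

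**Figure D3:**
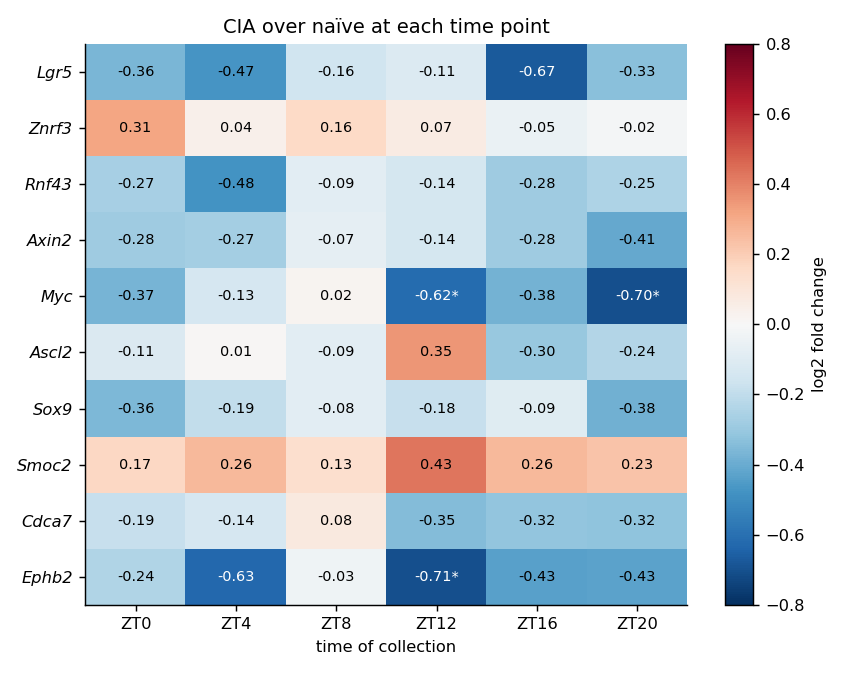
Log2 fold change of the 10 genes, CIA over naïve (color and printed value), at each zeitgeber time (columns, 5 CIA and 5 naïve mice each). Asterisks mark an edgeR adjusted p under 0.05, which Ephb2 reached at ZT12 and Myc at ZT12 and ZT20, and at ZT8 all values lay between -0.16 and 0.16.

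Ephb2 at ZT12 was 36.4, 48.5, 28.3, 26.8 and 29.3 CPM in CIA mice, against 62.7, 49.5, 56.6, 55.8 and 51.7 CPM in naïve mice. The highest CIA mouse was just under the lowest naïve mouse, so the treatments did not overlap. The log2 fold change was -0.71 (SE 0.17, edgeR adjusted p = 0.00647), and the call held in all 10 fits that left out 1 library of this time point. Ephb2 also had no overlap at ZT16, with 42.04, 38.2, 46.1, 39.4 and 47.7 CPM in CIA mice, against 66.0, 60.2, 48.6, 60.2 and 53.2 CPM in naïve mice (log2 fold change -0.43, edgeR adjusted p = 0.328). No call was made at this time, where 1 gene in all was called lower. At ZT20 it had 43.7, 53.8, 43.9, 55.3 and 42.99 CPM in CIA mice, against 59.6, 71.1, 68.1, 61.4 and 61.7 CPM in naïve mice (log2 fold change -0.43, edgeR adjusted p = 0.0788). Here, too, every CIA mouse was below every naïve mouse, without a call. Of all genes, 4.66% at ZT12, 1.17% at ZT16 and 6.87% at ZT20 were lower in CIA mice with no overlap. At ZT4 Ephb2 narrowly missed (log2 fold change -0.63, edgeR adjusted p = 0.0507), and it was called there without CIA replicate 4 (0.0183), naïve replicate 2 (0.0447) or naïve replicate 4 (0.0189). Those were 3 of 10 leave-one-out fits. In the other direction, the edgeR adjusted p was 0.281 without naïve replicate 1 (log2 fold change -0.43) and 0.236 without CIA replicate 3.

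Myc at ZT20 was 18.0, 18.97, 15.03, 22.6 and 17.03 CPM in CIA mice, against 28.7, 33.4, 26.8, 29.4 and 30.9 CPM in naïve mice. Every CIA mouse was below every naïve mouse. Its log2 fold change was -0.70 (SE 0.18, edgeR adjusted p = 0.0116), and the call held in all 10 leave-one-out fits. At ZT12 Myc was 13.8, 15.5, 16.8, 13.7 and 13.4 CPM in CIA mice, against 20.9, 21.7, 15.6, 31.7 and 22.4 CPM in naïve mice. Naïve replicate 3 lay within the CIA values. The log2 fold change there was -0.62 (SE 0.18, edgeR adjusted p = 0.0199), and the call was lost without CIA replicate 4 (0.0579), CIA replicate 5 (0.0552) or naïve replicate 4 (0.0968). At ZT8 Myc did not separate, at 23.1, 21.9, 20.4, 24.1 and 12.9 CPM in CIA mice, against 21.5, 13.8, 25.7, 20.8 and 19.2 CPM in naïve mice.

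Lgr5 at ZT16 was 1.98, 1.34, 2.13, 2.20 and 2.23 CPM in CIA mice, against 2.66, 3.16, 2.97, 3.80 and 3.15 CPM in naïve mice. The values did not overlap, with CIA replicate 2 apart from the other CIA mice, but the adjusted p was 0.336 (edgeR, log2 fold change -0.67). Smoc2 at ZT12 was 69.0, 68.1, 66.8, 60.6 and 58.3 CPM in CIA mice, against 36.3, 48.9, 44.7, 60.1 and 49.5 CPM in naïve mice (log2 fold change 0.43, edgeR adjusted p = 0.0852). Naïve replicate 4 reached into the CIA values. Znrf3 at ZT0 was 14.2, 16.1, 10.9, 13.9 and 16.4 CPM in CIA mice, against 13.02, 10.4, 11.5, 10.6 and 11.9 CPM in naïve mice (log2 fold change 0.31, edgeR adjusted p = 0.145). CIA replicate 3 was among the naïve values, and without it the edgeR adjusted p was 0.0482. That was the only call in 10 leave-one-out fits, whose adjusted p reached 0.411. Rnf43 at ZT4 averaged 27.04 ± 5.93 CPM in CIA mice, against 37.7 ± 6.15 CPM in naïve mice (SD, n = 5 each), with an edgeR adjusted p of 0.104. The other genes had their largest log2 fold changes at ZT12 or ZT20, at -0.35 for Cdca7 (edgeR adjusted p = 0.173) and 0.35 for Ascl2 (0.508) at ZT12, and at -0.41 for Axin2 (0.130) and -0.38 for Sox9 (0.141) at ZT20.

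In direction alone, Lgr5, Axin2, Rnf43, Sox9 and Ephb2 were lower in CIA tissue at all 6 time points, as were 17.6% of all genes, and Smoc2 was higher at all 6, as were 16.1%. Myc and Cdca7 were lower at 5, Ascl2 at 4 and Znrf3 at 2. The median log2 fold change of the 10 genes was -0.26 at ZT0, -0.16 at ZT4, -0.05 at ZT8, -0.14 at ZT12, -0.29 at ZT16 and -0.33 at ZT20, with medians over all genes between -0.04 and 0.00. Whether the effect of treatment changed over the day was tested by the interaction of treatment and time point, and 0 genes (0.00%) passed after adjustment in edgeR, with 817 (4.52%) at an unadjusted p under 0.05, and 0 in limma, with 755. For Myc this test gave an unadjusted p of 0.0436 and an edgeR adjusted p of 0.965.

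Daily rhythms were fitted as 24 h cosine curves on log2 CPM in each treatment (limma F test, Benjamini-Hochberg adjustment), with the amplitude counted from the mean to the peak. In CIA mice 1 of the 10 genes, Rnf43, was rhythmic, beside 29.7% of all genes. In naïve mice 4 were, Cdca7, Myc, Axin2 and Rnf43, beside 36.9% of all genes. These counts moved with the fit: with the smooth muscle score in the fit they were 4 in CIA mice (Myc, Rnf43, Cdca7 and Ephb2) and 3 in naïve mice (Myc, Rnf43 and Cdca7), and the naïve count was between 1 and 3 in all 8 alternatives other than leaving out single libraries. The difference between the counts was not tested as such. The plot of amplitudes and peak times shows the fits of both treatments.

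**Figure D4:**
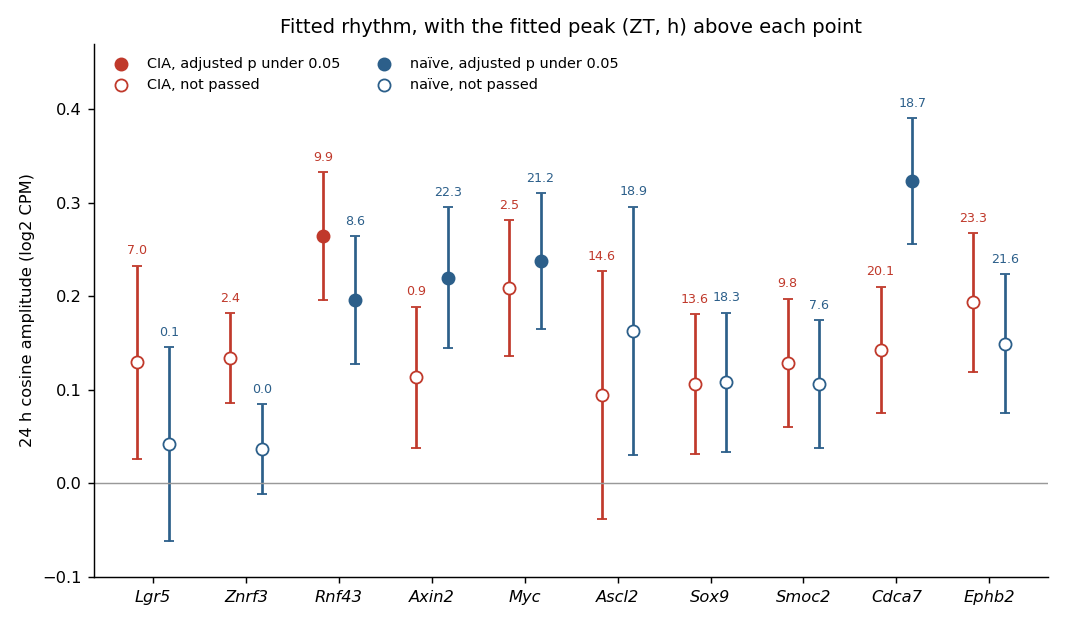
Fitted 24 h amplitude of each gene (vertical axis, log2 CPM, bars are SE) in CIA mice and, to the right, in naïve mice, with the fitted peak in zeitgeber hours above each point and filled points where the limma adjusted p was under 0.05. Cdca7 had the largest naïve amplitude (0.32) and Rnf43 the largest CIA amplitude (0.26), and 5 of the 20 points are filled.

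Rnf43 peaked at ZT9.90 (SE 0.984 h) with an amplitude of 0.26 (SE 0.07) in CIA mice (limma adjusted p = 0.00635) and at ZT8.62 (SE 1.33 h) with 0.20 (SE 0.07) in naïve mice (0.0499). Its group means were lowest at ZT20 (24.4 ± 4.19 CPM) and highest at ZT12 (35.8 ± 6.68 CPM) in CIA mice, and likewise lowest at ZT20 (28.9 ± 1.92 CPM) and highest at ZT12 (39.5 ± 7.35 CPM) in naïve mice (SD, n = 5 each). The naïve mean at ZT4 (37.7 ± 6.15 CPM) was within the SD of that at ZT12, and with time as a factor of 6 levels Rnf43 passed in CIA mice (limma adjusted p = 0.0397) and not in naïve mice (0.202). Weighing the models of no, shared, lost, gained and changed rhythm by the Schwarz criterion put Rnf43 in the class with the same rhythm in both, which held 34.7% of all genes (weight 0.943). That class held in all 60 leave-one-out fits, as did the CIA call, but the naïve call held in 23 of 60.

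Cdca7 peaked at ZT20.1 with an amplitude of 0.14 (SE 0.07) in CIA mice (limma adjusted p = 0.213) and at ZT18.7 with 0.32 (SE 0.07) in naïve mice (0.000476). Its means were lowest at ZT8 and highest at ZT20 in each treatment, 30.97 ± 2.44 and 39.1 ± 6.52 CPM in CIA mice, against 29.4 ± 7.69 and 48.8 ± 6.84 CPM in naïve mice (SD, n = 5 each). The swing was smaller in CIA mice, but the test of a difference in rhythm gave an edgeR adjusted p of 0.759, and the class stayed undecided, with a weight of 0.492 for the same rhythm and 0.427 for a loss. The clock gene Arntl stood apart from its group in CIA ZT16 replicate 1 (3.32 log2 CPM, group median 4.70) and in naïve ZT4 replicate 4 (3.59, group median 5.87). Without these 2 libraries Cdca7 was classed as the same rhythm (weight 0.860), as it was with the epithelial score as a covariate (0.645). It stayed undecided with the smooth muscle score (highest weight 0.454) and with the Akaike criterion (0.412). Of 60 leave-one-out fits, 49 left it undecided, 8 gave the same rhythm and 3 a loss. Myc peaked at ZT2.45 (SE 1.33 h) with an amplitude of 0.21 (SE 0.07) in CIA mice (limma adjusted p = 0.0591) and at ZT21.2 (SE 1.16 h) with 0.24 (SE 0.07) in naïve mice (0.0220). Its class was undecided as well (0.312 for the same rhythm, 0.273 for a changed one). The same test gave Myc an unadjusted p of 0.0249 and an edgeR adjusted p of 0.731, and 4 of all genes (0.0222%) passed it, with 1176 (6.51%) at an unadjusted p under 0.05, against 0 and 1216 in limma. Axin2 had an amplitude of 0.11 (SE 0.08) in CIA mice (limma adjusted p = 0.468) and of 0.22 (SE 0.08) with a peak at ZT22.3 in naïve mice (0.0452), and its naïve call held in 43 of 60 leave-one-out fits. With time as a factor of 6 levels, Cdca7 passed in naïve mice (limma adjusted p = 0.00569), while Myc (0.106) and Axin2 (0.329) did not.

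Ephb2 fell in the class of the same rhythm (weight 0.633), with an amplitude of 0.19 (SE 0.07) and a peak at ZT23.3 in CIA mice and 0.15 (SE 0.07) and ZT21.6 in naïve mice, though neither fit passed alone (limma adjusted p of 0.0954 and 0.215). That class held in 41 of 60 leave-one-out fits. With time as a factor in place of the cosine curve, Ephb2 passed in CIA mice (limma adjusted p = 0.0207) and not in naïve mice (0.553). Its CIA means were 39.6 ± 10.8 CPM at ZT4, 49.8 ± 13.8 CPM at ZT8 and 33.9 ± 8.99 CPM at ZT12 (SD, n = 5 each). A daily cosine curve cannot dip at both ZT4 and ZT12, so the fitted CIA peak describes these means poorly, though their spreads overlap. Lgr5 (weight 0.924), Ascl2 (0.913), Sox9 (0.853) and Smoc2 (0.686) were classed as arrhythmic, beside 35.7% of all genes, with amplitudes of 0.09 to 0.13 in CIA mice and 0.04 to 0.16 in naïve mice. Znrf3, at 0.13 (SE 0.05) in CIA mice and 0.04 (SE 0.05) in naïve mice, stayed between arrhythmic (0.437) and a gain (0.397). With the Schwarz weights of the main fit, none of the 10 genes was classed as a loss, a gain or a change of rhythm. Those classes held 4.65%, 2.40% and 0.233% of all genes. Of the 10 genes 4 stayed undecided, as did 22.4% of all genes. The 19 proliferation genes, by comparison, were all rhythmic in both treatments, and 18 had the same rhythm.

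How the genes varied together between mice was read from the deviations of each library from the mean of its treatment and time point (60 libraries, permutation within groups, 95 relations, Benjamini-Hochberg adjustment). Of the 45 pairs among the 10 genes, 21 had an adjusted p under 0.05, 20 of them positive. Myc and Ephb2 had r = 0.70 (rho = 0.66), Cdca7 and Myc 0.67 (0.61), Axin2 and Cdca7 0.67 (0.59), Ascl2 and Rnf43 0.63 (0.55), Axin2 and Myc 0.61 (0.53), and Axin2 and Ephb2 0.59 (0.53), with permutation adjusted p of 0.000119 to 0.00019 for r and of 0.00019 to 0.00101 for rho. Without the 2 libraries farthest from the median, these 6 r were between 0.50 and 0.66, and within treatments between 0.58 and 0.75 in CIA mice and between 0.49 and 0.74 in naïve mice. The 1 negative pair was Smoc2 and Rnf43 (r = -0.35, permutation adjusted p = 0.0382). The share of such pairs among other genes was not computed, and all libraries share differences in tissue makeup. Smoc2 had r of -0.11 to -0.32 with Myc, Cdca7, Axin2 and Ephb2 (permutation adjusted p of 0.0829 to 0.636).

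With the smooth muscle score, Rnf43 (r = -0.66, rho = -0.67), Ascl2 (-0.61, -0.59), Cdca7 (-0.60, -0.56), Myc (-0.55, -0.48), Sox9 (-0.48, -0.51), Axin2 (-0.48, -0.41), Lgr5 (-0.36, -0.35) and Ephb2 (-0.34, -0.29) correlated negatively and Smoc2 positively (0.39, 0.36). Their permutation adjusted p for r ran between 0.000119 and 0.0418, for rho Ephb2 did not pass (permutation adjusted p = 0.0954), and Znrf3 passed for neither (r = 0.27, permutation adjusted p = 0.143). Within treatments, Rnf43 had an r of -0.73 among CIA and -0.60 among naïve libraries, Ephb2 of -0.38 among CIA and -0.31 among naïve libraries, and Smoc2 of 0.42 among CIA and 0.36 among naïve libraries. Without the 2 libraries farthest from the median, these 3 were -0.68, -0.30 and 0.31 over both treatments. With the proliferation score, Ephb2 (r = 0.60, rho = 0.61), Cdca7 (0.56, 0.54), Axin2 (0.50, 0.45) and Myc (0.47, 0.52) correlated positively, with permutation adjusted p between 0.000119 and 0.00161. Rnf43 (-0.02) and Sox9 (0.01) lay near 0 on that score. Sox9 had the strongest correlation with the epithelial score (r = 0.55, rho = 0.57, permutation adjusted p = 0.00019). Axin2 (r = 0.37, permutation adjusted p = 0.00981) and Ascl2 (0.32, 0.0331) were also positive on that score, and Znrf3 was negative (-0.30, 0.033). Smoc2 had an r of -0.42 with the epithelial score in CIA mice and 0.39 in naïve mice, and -0.02 (permutation adjusted p = 0.932) over both. All measures in one library share its depth and its tissue makeup. The scatter plots against the scores show 6 of these relations.

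**Figure D5:**
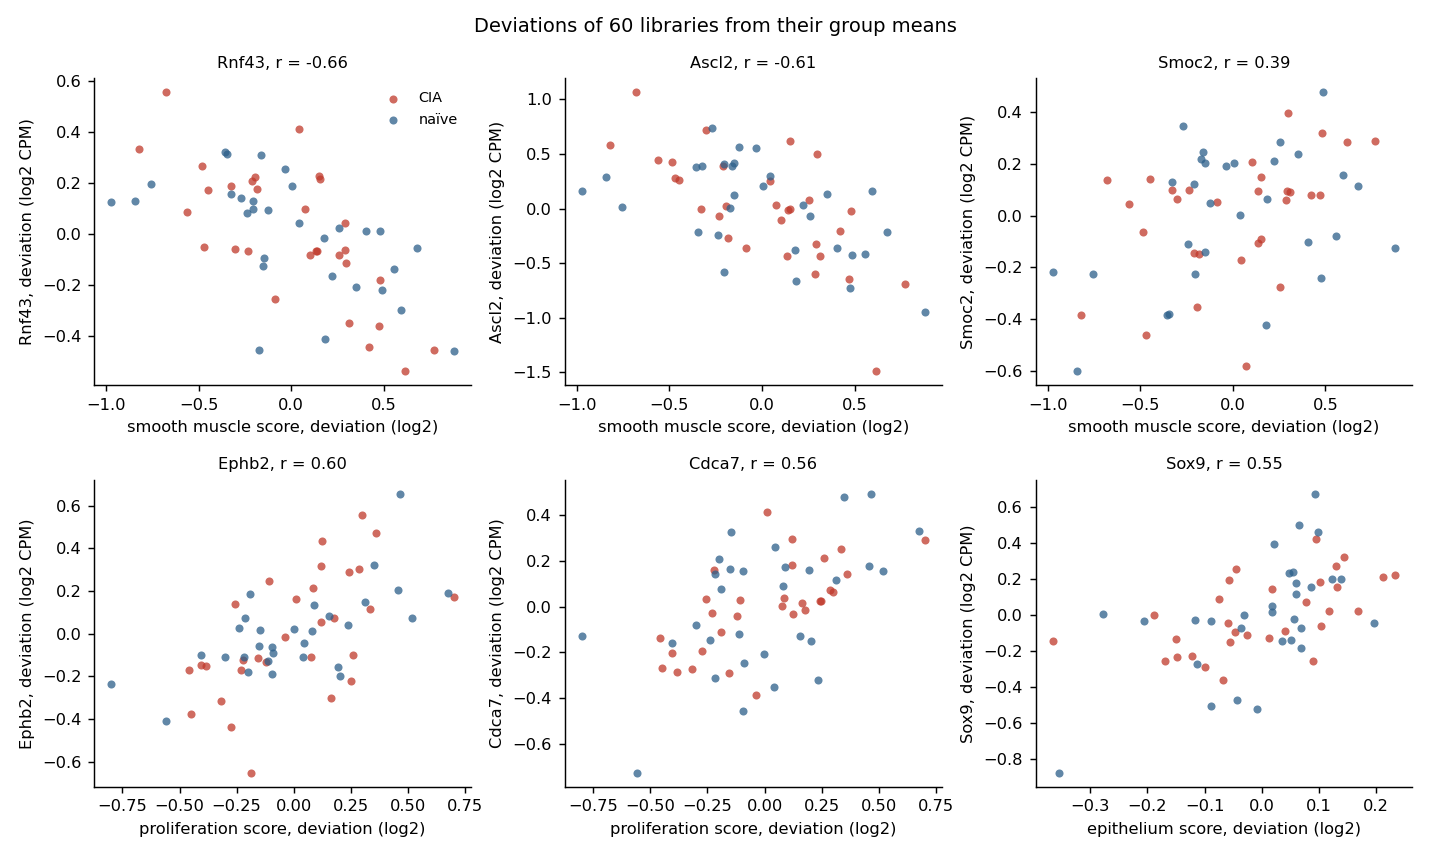
Deviation of 6 genes from their group means (vertical axes, log2 CPM) against the deviation of a marker score (horizontal axes, log2) in 60 libraries, CIA in red and naïve in blue. Rnf43 and Ascl2 correlated negatively and Smoc2 positively with the smooth muscle score (r = -0.66, -0.61 and 0.39), Ephb2 and Cdca7 positively with the proliferation score (0.60 and 0.56) and Sox9 with the epithelial score (0.55).

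Over the levels of all 60 libraries, the genes with the pattern most like each gene differed from gene to gene (Pearson correlation of log2 CPM, given as a description). Ephb2 was nearest to Gmds (0.91), an enzyme of GDP-fucose synthesis, Slc39a11 (0.90) and Galnt10 (0.89). Cdca7 was nearest to Slbp (0.88), the histone stem-loop binding protein, Mthfd1 (0.87), an enzyme of folate metabolism, and Sf3b3 (0.87). Smoc2 was nearest to Ptn (0.86), the secreted growth factor pleiotrophin, Htr3a (0.79), a serotonin receptor subunit, and C1qtnf7 (0.78). Rnf43 was nearest to Plcb3 (0.86), Myc to Stt3b (0.82), Axin2 to Ptbp1 (0.79), Sox9 to Acbd3 (0.78), Ascl2 to Ppp1r1b (0.72), Lgr5 to Lrp4 (0.72) and Znrf3 to Nek7 (0.63). None of the 10 genes was among the nearest 3 of another.

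Other genes of the pathway were tested in the same fit, in which 20.4% of all genes were called lower and 17.6% higher. Of 15 further Wnt target and crypt base genes tested, out of 16 listed, 7 were lower in CIA tissue, 1 was higher and 7 did not pass, with a median log2 fold change of -0.07. Among the lower ones, the TCF family genes Tcf7 (4.40 ± 1.15 CPM in CIA tissue and 6.09 ± 2.19 in naïve tissue, edgeR adjusted p = 0.000532) and Lef1 (0.622 ± 0.288 CPM in CIA tissue and 1.00 ± 0.474 in naïve tissue, 0.00172) had log2 fold changes of -0.47 and -0.69. Both are also expressed by T cells, whose markers Cd3g, Cd2 and Cd8a were lower, and the part of T cells in these values was not tested. The ephrin receptor gene Ephb3, a relative of Ephb2, averaged 36.7 ± 7.13 CPM in CIA tissue and 45.7 ± 10.9 CPM in naïve tissue (log2 fold change -0.32, edgeR adjusted p = 0.00156). Nkd1, a Wnt target gene and pathway antagonist, was higher, at 37.6 ± 9.11 CPM in CIA tissue and 26.9 ± 5.95 CPM in naïve tissue (log2 fold change 0.49, edgeR adjusted p = 2.16e-05).

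Of 29 receptors and transducers 23 did not pass, 3 were higher and 3 lower (median 0.01), a smaller share each way than over all genes. The receptor gene Fzd2 was higher, at 31.1 ± 5.92 CPM in CIA tissue and 22.3 ± 3.82 CPM in naïve tissue (edgeR adjusted p = 6.68e-07), and the co-receptor gene Lrp5 was lower, at 54.5 ± 9.22 CPM in CIA tissue and 63.4 ± 10.8 CPM in naïve tissue (0.00573). Of 11 R-spondin and Wnt ligand genes tested, 4 were higher and 2 lower (median 0.09). The R-spondin gene Rspo2 was higher and averaged 1.47 ± 0.468 CPM in CIA tissue and 0.986 ± 0.457 CPM in naïve tissue (edgeR adjusted p = 0.00148). Wnt2b and Wnt4, ligand genes, were lower. Wnt2b averaged 5.03 ± 1.62 CPM in CIA tissue and 7.82 ± 2.63 CPM in naïve tissue (3.41e-05), and Wnt4 8.68 ± 2.172 CPM in CIA tissue and 11.98 ± 2.74 CPM in naïve tissue (5.97e-05).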

How the data were processed

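Counts per Entrez gene for 60 libraries were deposited by the authors in 1 table. According to the study's methods and the submitters' processing notes, read pairs of stranded mRNA libraries were mapped to mm10/GRCm38 by STAR 2.5.3, after bcl2fastq 2.17.1.14 and trimming by Trimmomatic 0.36, and counted with Rsubread. The strand and multi-mapping settings of the counting are not given in the sources used here, so reads shared with antisense, overlapping or near-identical genes could not be assessed. Of counts between 1 and 20, 74.0% were even, against 50.5% of counts over 1000, so counts may include both ends of a pair, and counting error is then larger than the count implies. Of 27179 identifiers, 25275 were named from RefSeq (GRCm38.p6) and 18 from GENCODE, and 1886 stayed unnamed (0.528% of counts). The submitters' labels gave the treatment, time and replicate of each library.

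Genes with enough counts (edgeR filterByExpr over 12 groups, minimum count 10, minimum total 15) were scaled by TMM and tested with edgeR 4.0.16 (quasi-likelihood F test) in R 4.3.3, as treatment over all 60 libraries, at each time point in a fit of all 12 groups, and as interactions. Normalized levels (CPM) are counts scaled to 1000000 by TMM library size, computed here, with a prior count of 2 on the log2 scale. Only the summed levels of marker lists were scaled to raw library totals, without TMM factors. The authors paired an adjusted p with a limit on the fold change (log2 above 2 in size), which was kept as an alternative. Rhythm was tested with limma 3.58.1 on log2 CPM, and rhythm classes needed a Schwarz weight of 0.6 among 5 models, in place of the package that the study used. Adjusted p-values are Benjamini-Hochberg over all 18057 genes. Relations between genes used 100000 permutations within groups in numpy 2.4.6, and their smallest possible p is 1e-05. DESeq2 1.42.0 served as an alternative test, next to other filters and scalings, score covariates, left-out libraries and time points, and a replicate block. The edgeR and limma steps were also run on simulated data, and the outcome of that run is not given here. Replicate numbers were not used as pairs: over the 30 pairs of libraries that share a time point and a number, the median correlation of deviations was -0.044 and 8 exceeded 0.1. Nothing in the labels says that mice of 1 number shared a cage or day. The members and all gene lists were chosen with earlier results of these data known. All 10 members are reported. From each other list, genes were named only from the 3 of smallest adjusted p in each direction among those past the threshold. Many of these are left out for brevity. They include Axin1, Fzd1, Fzd7, Ryk, Rspo1 and Wnt9a, and all from the epithelial, differentiated colonocyte, goblet and secretory, and enteric neuron and glia lists. The nearest genes were the 3 with the highest Pearson correlation among genes averaging at least 1 CPM.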

Additional observations from a re-analysis of the deposited data

Results flagged for a closer look

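In 5 of the 120 groups of 5 mice (10 genes in 12 groups), 1 mouse stood apart by Dixon's ratio at 0.71, and chance gives about 1 in 20, or 6.0. Lgr5 at ZT16 was lowest in CIA replicate 2 (1.34 CPM), with 1.98 to 2.23 CPM in the other CIA mice. Axin2 at ZT20 was lowest in naïve replicate 4 (26.1 CPM), with 37.5 to 41 CPM in the other naïve mice. Cdca7 at ZT12 was lowest in CIA replicate 5 (28.7 CPM), with 32 to 33.05 CPM in the other CIA mice. Myc at ZT0 was highest in CIA replicate 1 (26.5 CPM), with 16.5 to 19.4 CPM in the other CIA mice. Znrf3 at ZT8 was highest in CIA replicate 4 (14.6 CPM), with 11.6 to 12.2 CPM in the other CIA mice. Leaving out any of these mice changed no call of the comparison pooled over time.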

How the results depend on the processing

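With the smooth muscle score added, 0 of the 10 genes were lower and 0 higher, with 480 genes lower and 462 higher over all. Under it the log2 fold changes of Ascl2 (0.38), Cdca7 (0.021), Rnf43 (0.015) and Sox9 (0.0084) changed sign. A fit with the smooth muscle and epithelial scores together, chosen after seeing the data, gave 0 and 0, with 457 genes lower and 393 higher over all. In that fit the log2 fold changes of Ascl2 (0.38), Cdca7 (0.020) and Rnf43 (0.030) changed sign. With the authors' limit on the fold change, 0 of the 10 were called either way, with 11 genes lower and 3 higher over all. Of the 10 genes 3 were lower with the proliferation score (2237 genes over all) and 4 without ZT20 (2426 genes), and a mean of at least 5 CPM left 2185 genes lower and removed Lgr5. Fitted alone, ZT12 had 1 of the 10 called and ZT20 had 2. Rhythmic genes in CIA mice were 2 with the epithelial score, 4 with the smooth muscle score and 2 with time as a factor, and in naïve mice 3 with either score, 1 with time as a factor and 2 without the 2 libraries of highest interferon score. The same rhythm was called for 4 with the epithelial score and 1 at a weight of 0.8. Myc was classed as a changed rhythm with the Akaike criterion and with the smooth muscle score. Leaving out 1 library gave 0 to 1 calls at ZT0, 0 to 1 at ZT4 and 1 to 2 at ZT12. It gave 1 to 3 rhythmic genes in CIA mice and 2 to 4 in naïve mice. The same rhythm was then called for 1 to 3 genes and a lost, gained or changed rhythm for 0 to 1.

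With a replicate block, 7 of the 10 genes stayed lower and 1 higher, with 3559 genes lower and 3156 higher over all, 2 calls at ZT12 and 1 at ZT20, and 3 rhythmic genes in naïve mice (Axin2 at a limma adjusted p of 0.0508). DESeq2, limma voom, other scalings, halved counts and the table without a filter kept all 8 pooled calls of the 10 genes. The lowest raw counts in a library were 60 for Lgr5 and 68 for Ascl2, which limits the precision of these 2 genes.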
